A study of Mus musculus with 10 samples.

Results

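Estrogen receptor α (ERα) is a ligand-activated transcription factor, and among the sites where it was detected in the mouse hypothalamus were promoters that serve a pair of genes at once. These bidirectional promoter sites were regions with an ERα peak whose centre lay from 1 kb upstream to 100 bp downstream of an annotated start site, with start sites of protein-coding genes on both strands within 1 kb of the centre. They numbered 334 of the 4722 regions (7.07%) that had a peak in at least 2 of 8 libraries. The members were chosen by 2 things: where peaks had been called, and where the RefSeq annotation of the mouse genome GRCm38.p6 (the mm10 build of the peak lists) places start sites. Because the presence of peaks chose them, how many of them were called in each library or nucleus is given below as a description, with no test.

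The peaks came from ChIP-seq, which pulls down a protein with an antibody (here sc-543 against ERα) and sequences the DNA attached to it, so that a peak marks a place where reads pile up above the background. Chromatin was taken from the arcuate nucleus and from the anteroventral periventricular nucleus (AVPV) of C57BL/6 female mice, with 4 libraries of each nucleus. All of these mice had been ovariectomised, carried a capsule with estradiol (0.1 mg/mL) under the skin and received estradiol benzoate (0.05 mg/kg) 28 h before collection, so the nucleus is the only labelled difference between the groups. The chromatin was pooled and the sources used here do not name separate pools, so each SD and p-value below is over libraries, not over animals. Whole nuclei were dissected, and peak lists hold no expression, so the tissues and cell types could not be checked against marker genes and fewer ERα cells cannot be told apart from less binding per cell. ERα may still be bound at a region in which no peak was called.

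In a bidirectional promoter, a pair of genes starts close together on opposite strands and is transcribed outward from a shared stretch of DNA. Such promoters are usually rich in CG dinucleotides and lack a TATA box, and many of their genes serve every cell, in mitochondria, DNA repair or RNA processing. ERα can bind DNA through the estrogen response element, a palindrome, or can be held at DNA by other factors such as Sp1 at GC boxes.

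The 4 strongest members whose sequence around the summit lies outside exons are shown first, because they carried the highest fold enrichment (the height of a peak over its local background) and because no estrogen response element stood within 100 bp of their summits. Capitals mark the 21 bases centred on the summit, and all sequences are the plus strand of GRCm38, 5′ to 3′.
Rad51ap1/D6Wsu163e, chr6:126939672-126939822: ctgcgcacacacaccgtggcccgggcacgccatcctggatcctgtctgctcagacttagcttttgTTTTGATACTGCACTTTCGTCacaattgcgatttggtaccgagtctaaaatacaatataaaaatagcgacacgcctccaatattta
Cep44/Fbxo8, chr8:56550917-56551067: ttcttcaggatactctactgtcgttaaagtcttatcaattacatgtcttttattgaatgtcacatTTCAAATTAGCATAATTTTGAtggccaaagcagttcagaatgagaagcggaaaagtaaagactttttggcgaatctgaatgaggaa
Gm4925/Arl1, chr10:88731131-88731269: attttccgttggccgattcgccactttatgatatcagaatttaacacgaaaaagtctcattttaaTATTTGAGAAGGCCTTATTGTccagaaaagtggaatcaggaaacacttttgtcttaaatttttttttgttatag
Atg13/Harbi1, chr2:91710670-91710820: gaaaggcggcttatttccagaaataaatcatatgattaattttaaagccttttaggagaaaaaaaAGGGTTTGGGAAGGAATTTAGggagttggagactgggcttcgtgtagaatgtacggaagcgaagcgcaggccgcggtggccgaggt

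The next 4 are shown because they hold the letters CCGGAA on one or the other strand, in capitals, which are the core recognised by ETS-family factors. Each has a peak in all 8 libraries, a summit between genes and these letters in the stretch outside exons around the summit, and both the letters and the examples were chosen after values had been seen. Members of similar or greater strength whose letters lie elsewhere in the window, such as Itgb3bp/Efcab7, are not shown.
Sugct/Mplkip, chr13:17695224-17695374: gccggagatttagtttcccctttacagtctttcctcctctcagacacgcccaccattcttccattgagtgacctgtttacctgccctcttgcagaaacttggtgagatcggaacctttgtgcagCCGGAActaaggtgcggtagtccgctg
Cog8/Nip7, chr8:107056738-107056867: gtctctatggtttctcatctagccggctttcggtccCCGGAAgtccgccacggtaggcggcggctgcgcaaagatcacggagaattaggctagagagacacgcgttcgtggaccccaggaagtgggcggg
Vmp1/Ptrh2, chr11:86683844-86683994: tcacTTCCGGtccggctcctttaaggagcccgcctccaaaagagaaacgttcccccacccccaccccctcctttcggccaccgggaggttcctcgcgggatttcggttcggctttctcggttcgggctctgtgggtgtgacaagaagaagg
Vps51/Tmem262, chr19:6077188-6077300: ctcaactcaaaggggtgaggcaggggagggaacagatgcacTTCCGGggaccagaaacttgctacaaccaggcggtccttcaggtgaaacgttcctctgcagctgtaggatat

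The last 4 are members with an estrogen response element, at most 2 mismatches allowed, within 100 bp of the summit. At Srsf2/Mfsd11 the centre of the match minus the summit was -64 bp, and only 1 library of each nucleus had a peak. Brd8/Kif20a also has an element and is not shown. Capitals mark the 15 bases matched to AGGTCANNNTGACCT, in which 12 bases are fixed.
Slc39a7/Rxrb, capitals at chr17:34031158-34031172: tgtgcAGGTCACCATGACCCtcgtg
Nadsyn1/Dhcr7, capitals at chr7:143823117-143823131: gcccaAGGTCAGAGCGTCCTggatc
Hras/Lrrc56, capitals at chr7:141194350-141194364: tggaaAGGTCATCCCGACCGggtat
Srsf2/Mfsd11, capitals at chr11:116852863-116852877: gcggtAGGTCAGGTTGTCCAccttg

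The rule for members places each centre within 1 kb of coding starts on both strands. The distances from starts below are therefore bounded by the rule and are given as a description. Of the 334 members, 283 (84.7%, 95% Wilson interval 80.5 to 88.2) lay at divergent pairs, in which the gene on the minus strand starts to the left of the gene on the plus strand, and 51 lay at pairs whose first parts overlap. The divergent starts were 1 to 1472 bp apart, with a median of 125 bp. The summit was a median of 104 bp from the midpoint of the paired starts and 76 bp from the nearer start, and it lay within 100 bp of the nearer start at 209 members (62.6%). At 110 of the 283 divergent members (38.9%) the summit stood between the starts. By the annotation 232 summits (69.5%) fell in an exon, 50 in an intron and 52 between genes. Intervals here and below cover counting error only.

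**Figure D1:**
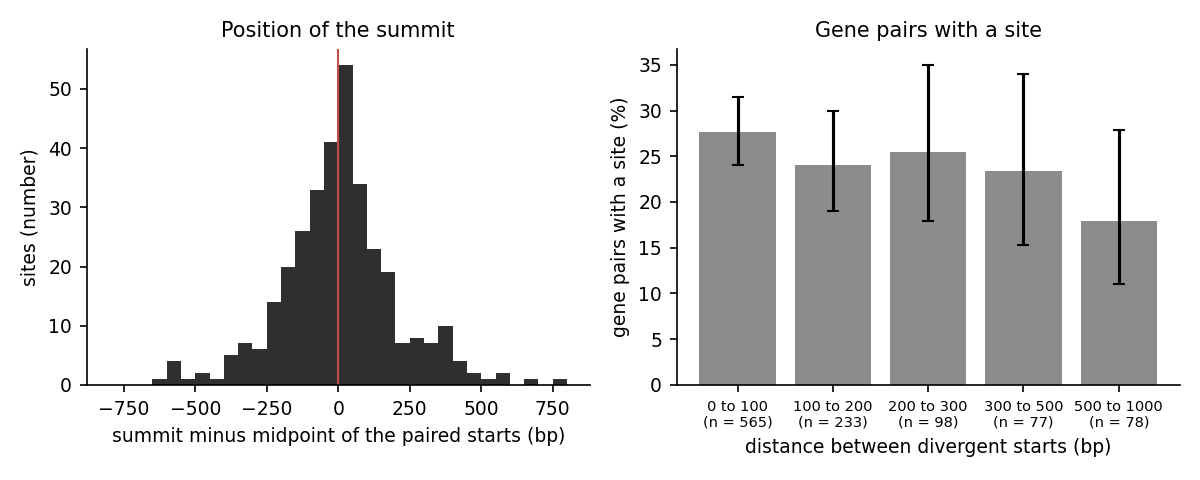
Left, number of bidirectional promoter sites by the distance of the peak summit from the midpoint of the paired starts (bp, bins of 50). Right, percent of the divergent coding gene pairs of the genome that had a site, by the distance between their starts (bp), with 95% Wilson intervals. The median distance from the midpoint was 104 bp, a distance that the rule for members bounds. The share of pairs with a site ran from 27.6% in the bin of the closest starts to 17.9% in the bin of the most distant ones, with overlapping intervals.

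The 334 members covered 326 distinct gene pairs, since 16 members shared their pair with another member, and 3 members had more than 2 coding genes within reach. The genome holds 1336 pairs of coding genes with opposite starts within 1 kb, of which 327 (24.5%) had a site and 874 had no peak in any library. Divergent pairs had a site in 269 of 1051 cases (25.6%, interval 23.0 to 28.3) and overlapping pairs in 58 of 285 (20.4%, interval 16.1 to 25.4), so the intervals overlap. None of the 38 pairs on chromosome X had a site or a peak in any library, where a count of 0 of 38 has an upper Wilson bound of 9.18%, against 327 of 1298 autosomal pairs (25.2%). Chromosome X holds 4.42% of coding genes and held 10 of the 1062 promoter sites with coding starts on 1 strand only (0.942%).

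Genes with paired starts had a peak more often than other coding genes in every library. Among the 2637 coding genes with an opposite coding start within 1 kb, a peak centre within 1 kb of a start was found for 19.1%, 21.6%, 19.1% and 24.4% in arcuate libraries 1 to 4 and for 16.9%, 17.7%, 25.4% and 17.6% in AVPV libraries 1 to 4. Among the other 19137 coding genes the share was 5.17%, 5.72%, 5.17% and 7.30% in the arcuate and 4.26%, 4.47%, 6.88% and 4.42% in the AVPV. The lowest share of paired-start genes, 16.9%, was above the highest of the others, 7.30%. The mean difference was 14.8 ± 2.12 percentage points (SD, n = 8 libraries), above 0 in 8 of 8 libraries. An exact two-sided sign-flip test gave p = 0.00781, the smallest that 8 libraries allow. That value is reached whenever all 8 differences share a sign. Every library scored the same genes, so the p-value does not cover the spread among genes. The difference was 15.2 ± 1.56 points in the arcuate and 14.4 ± 2.76 in the AVPV (SD, n = 4 each), which did not differ between the nuclei beyond the spread of the libraries (exact two-sided permutation test, p = 0.686). These classes come from the annotation alone and hold all coding genes, with or without a peak, and a single peak can count for both genes of a pair.

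Genes at the members were counted in chosen groups, most of them with general cell functions, and the counts were not tested. A gene was placed by its symbol alone, and most genes at the members belong to none of these groups. Over all paired-start genes, 651 of 2637 (24.7%) lay at a member. For the mitochondrial ribosome, which translates the proteins encoded in mitochondria, it was 14 of 33 (42.4%, interval 27.2 to 59.2), among them Mrpl13, Mrpl44, Mrps27 and Mrps34. For the respiratory chain it was 13 of 40 (32.5%, interval 20.1 to 48.0), among them the complex I subunits Ndufa13 and Ndufs1 and the ATP synthase subunit Atp5j. Mitochondrial import had 4 of 10 (Timm21, Timm23, Timm29 and Timm9, translocases of the inner membrane). Other groups were DNA repair and replication with 10 of 35, among them the replicative helicase subunit Mcm7, splicing with 5 of 16, among them Srsf2 and Srsf7, chaperones with 7 of 26, zinc finger factors with 10 of 37, vesicle trafficking with 9 of 37, tRNA synthetases with 4 of 13, the cytosolic ribosome with 4 of 17 and chromatin with 4 of 11. The lowest counts were 2 of 25 for histones (H2ac8 and H2bc8, 8.0%, interval 2.22 to 25.0) and 2 of 17 for RNA polymerase and Mediator (Med8 and Polr3g). Proteasome and ubiquitin genes had 4 of 21, solute carriers 6 of 29, and the single circadian gene with paired starts had no site. The interval of the mitochondrial ribosome was the only one that did not hold 24.7%. The intervals were not corrected for the number of groups, so with this many groups an interval can miss that share by chance. The groups were also chosen with earlier results of these data known, and a single peak can count for both genes of a pair. Whether any group lay at members more often than other paired-start genes was therefore not tested.

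The members were mostly called in both nuclei. At 221 of 334 (66.2%) at least 2 libraries of each nucleus had a peak, 52 (15.6%) met this in the arcuate only, 29 (8.68%) in the AVPV only, and 32 had 1 library in each nucleus. Calls in both nuclei were at 60.5% of the 1062 promoter sites with coding starts on 1 strand. They were at 38.2% of the 3265 sites outside promoters. Calls in the arcuate only were at 17.7% and 38.7% of these classes, and calls in the AVPV only at 12.9% and 16.9%. A peak in all 8 libraries was present at 136 members (40.7%, interval 35.6 to 46.1), at 34.3% of the one-direction promoter sites (interval 31.5 to 37.2) and at 17.5% of the sites outside promoters (interval 16.2 to 18.8). The members were also wide, with a median of 552 bp against 486 and 369 bp, but merging peaks of more libraries widens a region.

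**Figure D2:**
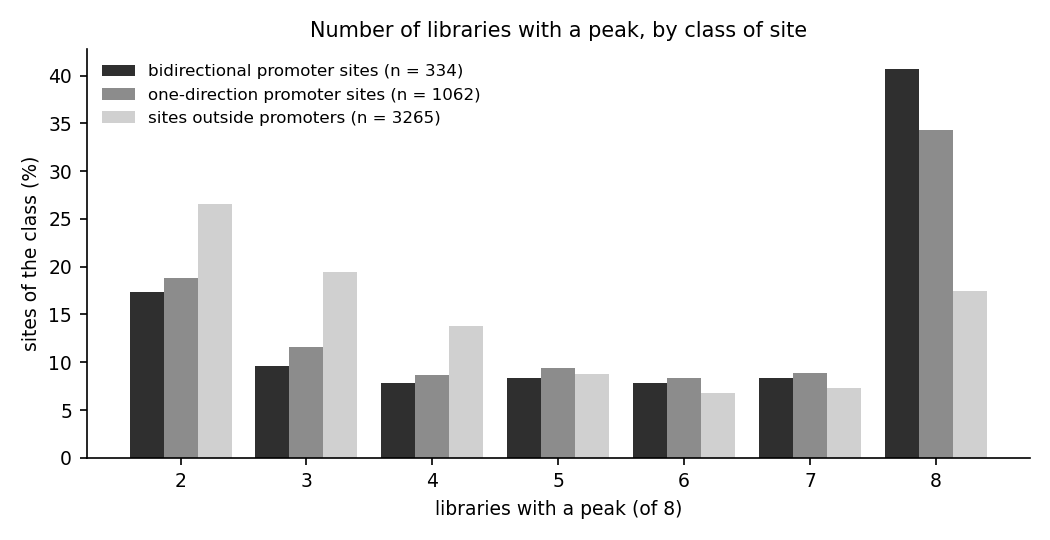
Percent of sites of each class (vertical axis) by the number of libraries with a peak (horizontal axis, of 8). Bidirectional promoter sites are dark, one-direction promoter sites grey and sites outside promoters light. The bar at 8 libraries is the highest for the bidirectional sites (40.7%), and the bar at 2 libraries is the highest for sites outside promoters (26.5%).

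The arcuate libraries had a peak at 68.9%, 76.6%, 67.7% and 78.7% of the members and the AVPV libraries at 62.0%, 66.2%, 82.9% and 64.7%, with the highest share in AVPV library 3 and the next in arcuate library 4. The mean numbers were 244 ± 18.5 and 230 ± 31.7 members (SD, n = 4 each), a difference of 13.5, which turned to -29.5 (arcuate minus AVPV) when the lists were shortened to equal length. Members took 5.76%, 6.85%, 7.14% and 7.81% of all peaks in the arcuate and 8.83%, 9.01%, 8.52% and 7.22% in the AVPV, so that the groups overlapped through AVPV library 4. The difference of the means was -1.504 percentage points (arcuate minus AVPV). The lists were longer in the arcuate (3251 to 4079 peaks) than in most of the AVPV (2367 to 3347), and with lists of equal length the difference was -1.33 points. Of the peaks at promoters, members took 23.0% to 24.6% across arcuate libraries and 23.8% to 25.0% across AVPV libraries.

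**Figure D3:**
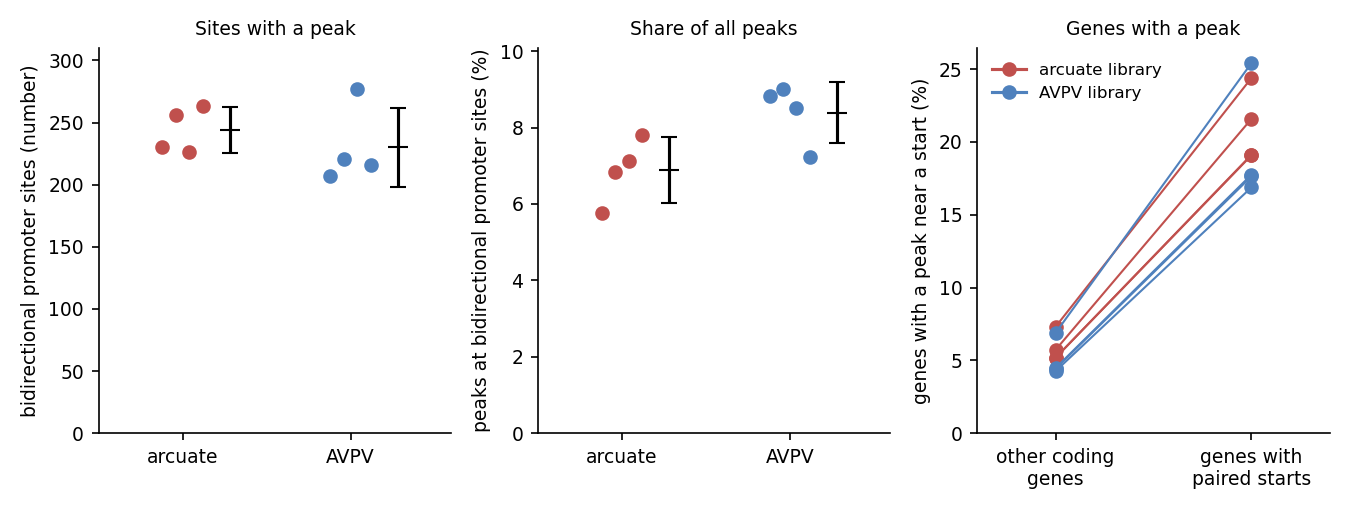
Left and middle, number of bidirectional promoter sites with a peak and percent of all peaks at these sites in each library (points), with mean and SD per nucleus (n = 4). Right, percent of genes with a peak within 1 kb of a start, for other coding genes and genes with paired starts, joined by library. The 2 nuclei overlap in the first panels, and all 8 lines rise in the last, from at most 7.30% to at least 16.9%.

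Ranked within its own list by fold enrichment, a typical member was a little above the middle, with medians between the 54.9th and 68.2nd percentile of the 8 libraries. The range of medians for one-direction promoter sites was 55.8 to 66.1. Between 19% and 24.3% of the members with a peak were in the top 10% of their list, and the range for one-direction sites was 14.6% to 19.8%. The share was higher for members than for one-direction sites in 8 of 8 libraries. These ranks are a description, because the calling of peaks chose the sites.

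The 8 strongest members stood at or above percentile 98.8 of every list. The strongest was Rad51ap1/D6Wsu163e (chr6:126939010-126940749), at a gene that acts in DNA repair. Its fold enrichment was 61.3, 52.3, 49.9 and 60.2 in arcuate libraries 1 to 4 and 59.1, 65.03, 69.2 and 61.3 in AVPV libraries 1 to 4, and its summit stood between the starts, which are 352 bp apart. The ranges of the nuclei overlapped. Cep44/Fbxo8 (chr8:56550322-56551932), at genes for a centrosomal protein and an F-box protein, followed with 47.2, 40.9, 42.99 and 45.1 in the arcuate and 46.8, 48.6, 46.0 and 45.1 in AVPV libraries. Gm4925/Arl1 (chr10:88730300-88732204), where Arl1 is a small GTPase of the Golgi, had 36.6, 41.8, 40.8 and 49.4 against 42.1, 44.2, 51.0 and 40.9. At all 3 sites the nuclei overlapped, and the highest value was from an AVPV library.

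Ppip5k2/Gin1 (chr1:97769476-97770663), with a kinase of inositol pyrophosphates, ranged from 31.7 to 43.6 in the arcuate and 40.9 to 52.4 in AVPV libraries. Banf1/Eif1ad (chr19:5366436-5367389), where Banf1 encodes a protein that links DNA to the nuclear lamina, ranged from 39.8 to 52.7 in the arcuate and 32.5 to 49.1 in AVPV libraries. Atg13/Harbi1 (chr2:91709973-91711530), with a starter of autophagy, ranged from 34.9 to 44.4 in the arcuate and 33.5 to 42.9 in AVPV libraries. In each of these 3 the nuclei overlapped. Supt7l/Slc4a1ap (chr5:31526299-31527601), where Supt7l is a subunit of a histone acetyltransferase complex, ranged from 34.3 to 37.9 in the arcuate and 34.97 to 43.2 in AVPV libraries, again with overlap. Hnrnpa2b1/Cbx3 (chr6:51469170-51470503), shared by an RNA-binding protein and a heterochromatin protein, was the exception among the 8, with 55.6, 51.5, 41.7 and 56.6 in the arcuate and 32.3, 34.4, 40.01 and 34.8 in the AVPV, where each arcuate value was above each AVPV value. It was 0.52 ± 0.18 higher in the arcuate on the centred log2 scale described next (SE, n = 4 each, limma adjusted p = 0.0465).

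To ask where the nuclei differed in strength, log2 fold enrichment was centred on the median of each library and fitted with limma over the 1089 regions with a peak in all 8 libraries. These regions cannot include a site called in 1 nucleus alone. Over all 1089 regions 19.4% passed an adjusted p of 0.05 (10.2% higher in the arcuate and 9.18% higher in the AVPV). Of the 136 members, 26 passed (19.1%), a share near the background, with 8 higher in the arcuate (5.88%) and 18 higher in the AVPV (13.2%). The split between directions depended on the scale: with percentiles within each list in place of centred log2 values, 9 members passed, 5 higher in the arcuate and 4 in the AVPV. The median difference over the 136 members was -0.09 on the centred log2 scale, beside 0.02 over all 1089 regions.

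The largest difference among the members was at Jmjd6/Mettl23 (chr11:116843274-116843892), whose genes encode an oxygenase with a JmjC domain and a methyltransferase, and whose starts overlap by 42 bp. Fold enrichment was 9.75, 8.34, 9.12 and 12.6 in arcuate libraries 1 to 4 and 3.9, 2.93, 5.39 and 3.79 in AVPV libraries 1 to 4. All arcuate values lay above all AVPV values, and the centred difference was 1.32 ± 0.20 on the log2 scale (SE, n = 4 each), or 2.499-fold (limma, adjusted p = 1.08e-04).

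At Ncstn/Copa (chr1:172082327-172083247), with the γ-secretase subunit nicastrin and a subunit of the COPI coat, the values were 7.95, 10.5, 10.7 and 7.94 in the arcuate and 3.82, 5.81, 5.77 and 4.49 in AVPV libraries. The nuclei did not overlap, and the arcuate was higher by 0.90 ± 0.20 (limma, adjusted p = 0.00349). Atp5j/Gabpa (chr16:84834386-84835700) pairs a subunit of the ATP synthase with GABPα, itself an ETS-family factor. It had 22.3, 19.1, 17.3 and 17.3 in the arcuate and 10.2, 10.04, 11.5 and 12.4 in AVPV libraries, without overlap, a difference of 0.77 ± 0.18 (limma, adjusted p = 0.00427).

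Zfp668/Zfp646 (chr7:127875656-127877473), a pair of zinc finger genes, was among the tallest sites of either nucleus. Its values were 45.03, 41.5, 50.2 and 57.5 in the arcuate and 29.98, 25.6, 34.2 and 24.5 in AVPV libraries. The nuclei did not overlap and differed by 0.76 ± 0.19 (limma, adjusted p = 0.00749). On percentiles the call was lost (limma, adjusted p = 0.485), where the arcuate lay between 99.7 and 99.8 and the AVPV between 97.8 and 98.8. Ndufa13/Tssk6 (chr8:69901417-69902037), with a complex I subunit and a testis-specific kinase, had 7.7, 6.46, 7.93 and 9.74 in the arcuate and 5.51, 4.63, 5.48 and 3.95 in AVPV libraries. All arcuate libraries were higher, by 0.69 ± 0.20 (limma, adjusted p = 0.0162), and without AVPV library 4 the adjusted p was 0.0619.

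In the other direction, 1810024B03Rik/Snrnp200 (chr2:127208046-127209155), where Snrnp200 is the helicase of the U5 snRNP in the spliceosome, had 10.7, 9.93, 8.46 and 8.45 in the arcuate and 19.2, 16.8, 19.9 and 23.2 in AVPV libraries. Each AVPV value was above each arcuate value, and the difference was -1.08 ± 0.18 (arcuate minus AVPV, limma, adjusted p = 2.47e-04), 2.12-fold. Nkapd1/Pih1d2 (chr9:50616576-50617706) had 16.2, 16.4, 16.3 and 17.3 in the arcuate and 29.5, 34.1, 38.8 and 36.6 in AVPV libraries. The arcuate libraries lay within a narrow band well under the AVPV ones, with a difference of -1.07 ± 0.18 (limma, adjusted p = 2.34e-04).

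Gstcd/Ints12 (chr3:133091320-133092472), where Ints12 is a subunit of the Integrator complex of RNA 3′-end processing, had 13.02, 13.3, 12.5 and 14.1 in the arcuate and 26.1, 24.8, 26.95 and 26.1 in AVPV libraries. The values were close together within each nucleus and did not overlap, with a difference of -0.98 ± 0.18 (limma, adjusted p = 6.22e-04). Iftap/Rag2 (chr2:101628760-101629472), next to the gene for a V(D)J recombinase subunit, had 11.9, 5.44, 7.5 and 5.7 in the arcuate and 16.2, 14.1, 13.97 and 14.1 in AVPV libraries. Arcuate library 1 was the closest to the AVPV, and the difference was -1.02 ± 0.21 (limma, adjusted p = 0.00217). Uqcr10/Zmat5 (chr11:4704039-4704846), with a complex III subunit, had 7.82, 3.78, 5.69 and 5.99 in the arcuate and 12.6, 10.4, 11.6 and 9.36 in AVPV libraries, also without overlap, a difference of -0.96 ± 0.21 (limma, adjusted p = 0.0029).

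Some of these calls depended on the scale. On percentiles those at Nkapd1/Pih1d2, Iftap/Rag2 and Uqcr10/Zmat5 were also lost (limma, adjusted p = 0.0821, 0.108 and 0.0897). On log2 of the −log10 p-value in place of fold enrichment, those at Atp5j/Gabpa, Zfp668/Zfp646, Ndufa13/Tssk6, Nkapd1/Pih1d2 and Gstcd/Ints12 were lost (limma, adjusted p = 0.143, 0.435, 0.566, 0.0761 and 0.0877). Each of the 10 members kept its direction under these scales.

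**Figure D4:**
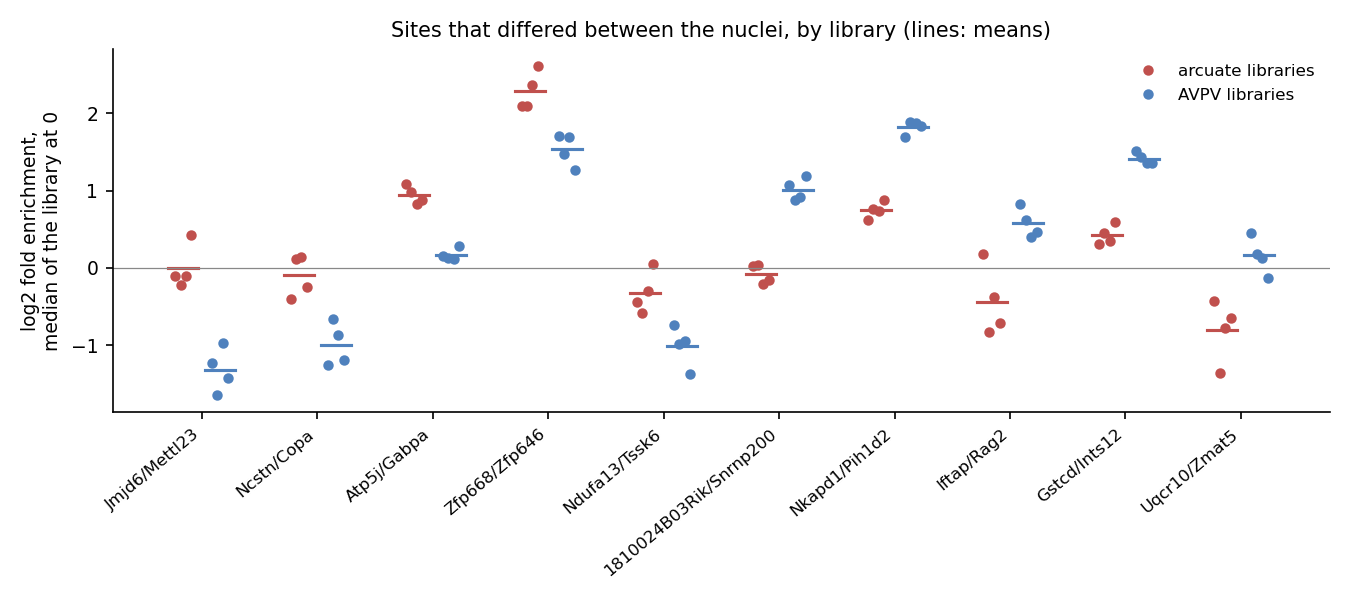
Log2 fold enrichment of the 10 named members that differed between the nuclei (horizontal axis), with the median of each library set to 0 (vertical axis). Points are libraries, red for the arcuate and blue for the AVPV, and lines are means of 4. The first 5 pairs were higher in the arcuate and the last 5 in the AVPV, with no overlap of points within a pair, and Jmjd6/Mettl23 shows the widest gap (1.32).

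Few members were called in every library of one nucleus and in none of the other. Over all 8072 merged regions, 2.13% had a peak in 4 of 4 arcuate libraries and 0 of 4 AVPV libraries, and 0.818% had the reverse. Over the 4722 regions with peaks in at least 2 libraries the shares were 3.64% and 1.4%. Of the 334 members 2 (0.599%) were called so for the arcuate and 2 (0.599%) for the AVPV. The arcuate count was 7 without arcuate library 1, 4 without AVPV library 3 or AVPV library 4, and 1 when peaks at or below a fold enrichment of 5 were left out. Leaving out a library loosens the rule, because only the remaining libraries must have or lack a peak. The share over all regions under the looser rule is not given here. The arcuate members were 6330409D20Rik/Sh2d3c (chr2:32741513-32741902), where Sh2d3c is a signalling adaptor, with 4.05, 5.34, 5.79 and 6.4, and Spata17/Gpatch2 (chr1:187215311-187215874), with 4.62, 4.3, 5.21 and 6.85. The AVPV members were Cdca2/Kctd9 (chr14:67715216-67715691), where Cdca2 is a regulator of protein phosphatase 1 in mitosis, with 7.84, 5.49, 10.6 and 5.39, and Rnf121/Xndc1 (chr7:102065216-102065559), with 6.01, 4.91, 5.06 and 4.54. None of these values was above 10.6.

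With at least 3 of 4 libraries as the limit and none of the other nucleus, 8 members (2.40%) were found for the arcuate and 4 (1.20%) for the AVPV, beside 11.3% and 3.56% of the 4722 regions. These counts include the members with 4 of 4 libraries named above. In the arcuate, Zfp597/Naa60 had 5.65, 7.62 and 6.85 in the 3 libraries with a peak, and both regions at 1110065P20Rik/Yrdc, where Yrdc modifies tRNA, lacked a peak in arcuate library 1. In the AVPV, Atp6v1d/Eif2s1, which pairs a proton pump subunit with the translation factor eIF2α, had 5.49, 4.69 and 4.54 and Ppme1/C2cd3 had 4.02, 3.93 and 4.25. No value at Atp6v1d/Eif2s1 or Ppme1/C2cd3 was above 5.49.

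Among members with a peak in every library, the shortest distances between starts were at Tmem186/Pmm2, where the starts overlap by 4 bp, at Nsa2/Gfm2, 7 bp apart, and at Dnajc2/Psmc2, 11 bp apart. Tmem186/Pmm2 (chr16:8637546-8638230), with the phosphomannomutase of glycosylation, had 10.97, 12.8, 9.74 and 10.1 in the arcuate and 11.6, 10.9, 12.1 and 14.2 in AVPV libraries. Nsa2/Gfm2 (chr13:97137410-97138301), with factors of ribosome biogenesis and mitochondrial translation, had 7.91, 7.11, 9.28 and 9.44 in the arcuate and 7.97, 7.53, 8.99 and 7.9 in AVPV libraries. Dnajc2/Psmc2 (chr5:21784796-21786029), with a chaperone of the ribosome and an ATPase of the proteasome, ranged from 10.3 to 14.8 in the arcuate and 6.45 to 10.7 in AVPV libraries. The nuclei overlapped at the first and second of these pairs, and at the third arcuate and AVPV also overlapped through AVPV library 1.

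At the limit of the rule, the members whose farther start was nearest to 1 kb were Atf5/Il4i1b (985 bp), a second region at Hnrnpa2b1/Cbx3 (984 bp) and Cdca4/Gm52009 (956 bp), with peaks in 2, 3 and 2 libraries. Just outside it were Syt3/1700008O03Rik (1024 bp), Bet1l/Ric8a (1049 bp) and Slc33a1/Gmps (1059 bp), each with a peak in all 8 libraries and mean percentiles of 88.1, 49.3 and 89.4.

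Estrogen response elements were rare at these promoters. Within 100 bp of the summit, an element with at most 2 mismatches (both strands searched) was found at 5 of 334 members (1.497%, interval 0.641 to 3.46), at 4.61% of one-direction promoter sites (interval 3.51 to 6.05) and at 48.4% of sites outside promoters (interval 46.7 to 50.1). In windows of the same length, 201 bp, at 1 start of each of the 21774 coding genes it was found in 0.804%. One arm of the palindrome, AGGTCA, stood at 5.99% of members, 10.5% of one-direction sites, 50.1% of sites outside promoters and 9.24% of coding starts.

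The 5 members with an element, which were named after their values were seen except the first, were Slc39a7/Rxrb, Nadsyn1/Dhcr7, Hras/Lrrc56, Brd8/Kif20a and Srsf2/Mfsd11. Only Slc39a7/Rxrb (chr17:34030841-34031512), at the genes for a zinc transporter and retinoid X receptor β, had at most 1 mismatch, T15C (element base, position from 1 at the 5′ end of the element, genome base). Its fold enrichment was 4.48, 4.24, 6.76 and 4.32 in arcuate libraries 1 to 4 and 5.53 and 3.31 in AVPV libraries 3 and 4, with no peak in the other two. Its mean percentile, 23.2, is in the lower part of the lists. Nadsyn1/Dhcr7, where Dhcr7 carries out the last step of cholesterol synthesis, was the only one of the 5 with a peak in all 8 libraries. This member passed the test between nuclei with a difference of -0.83 ± 0.21 (arcuate minus AVPV, limma, adjusted p = 0.00683). On that centred log2 scale arcuate library 2 (0.081) lay just under the lowest AVPV library (0.156), and on percentiles the groups overlapped. The median of the mean percentile was 23.8 over the 5 members and 43.5 over the others.

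Letters of ETS factors and the GC box were common at the members, and most other letters searched were not. The ETS letters CCGGAAG (both strands) stood within 100 bp of the summit at 115 members (34.4%, interval 29.5 to 39.7), at 32.8% of one-direction sites, at 3.95% of sites outside promoters and at 9.49% of coding starts. Since summits and starts are different anchors, windows at the midpoint of the paired starts were also compared: 39.8% of members (interval 34.7 to 45.2) and 14.5% of the 874 pairs without a peak (interval 12.3 to 17.0) held the letters. The core CCGGAA, added after the sequences were seen, was at 46.4% of member summits, 49.7% of member midpoints and 24.1% of midpoints of pairs without a peak. A match is not a bound site.

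The GC box GGGCGG, the letters of Sp1, stood at 43.1% of member summits and 39.5% of coding starts, and at 47.6% of member midpoints against 54.6% of midpoints of pairs without a peak. CCAAT, the letters of NF-Y, was at 19.2% of member summits, 28.5% of coding starts and 21.8% of sites outside promoters. It was at 24.6% of member midpoints and 34.7% of those without a peak. ACTACAA, part of the element of ZNF143, was at 9.58% of member summits, 7.16% of one-direction sites and 2.40% of coding starts, and at 8.38% against 2.40% of the midpoints. The other searches found few matches at member summits: TGANTCA (AP-1) at 6, CACGTG (E-box) at 11, AAGATGGCG (YY1) at 7, TATAAA at 5, TGACGTCA (CRE) at 2 and the NRF1 palindrome GCGCATGCGC at 2. All of these except the YY1 letters had a lower share at member summits than at coding starts.

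**Figure D5:**
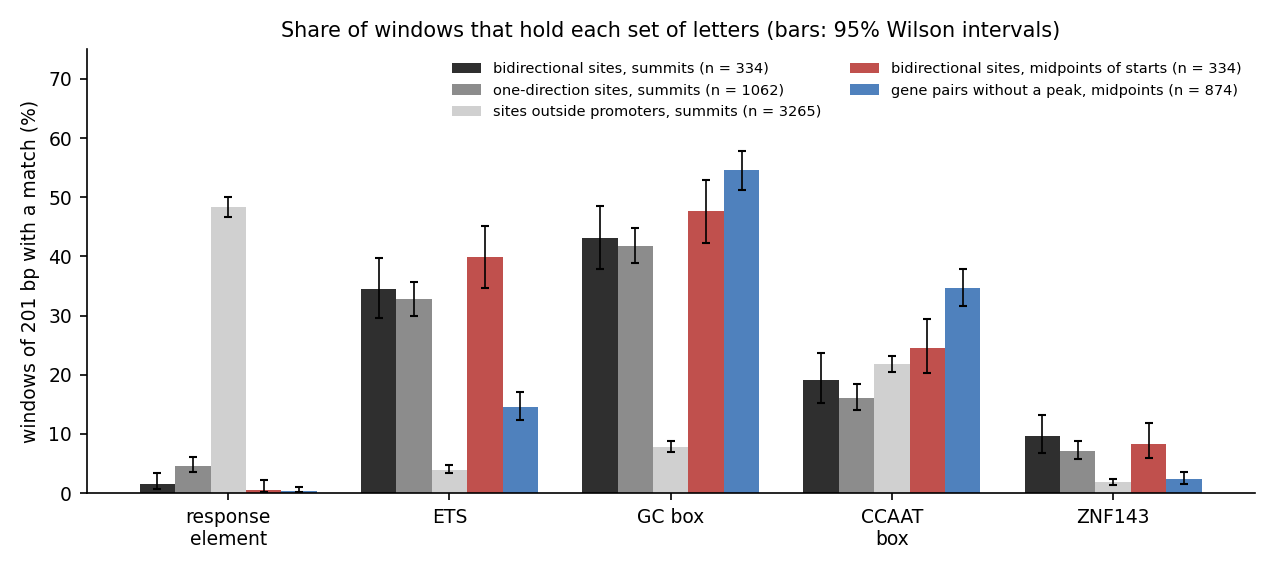
Percent of windows of 201 bp (vertical axis) that hold the letters of each factor (horizontal axis), with 95% Wilson intervals, for summits of 3 classes of sites and for midpoints of paired starts with and without a peak. The response element is at 48.4% of sites outside promoters, 4.61% of one-direction sites and 1.497% of bidirectional sites, and the ETS letters are at 39.8% of member midpoints against 14.5% of those without a peak.

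Within the members, some letters went with the number of libraries and others did not. A peak in all 8 libraries was present at 49.0% of the 155 members with CCGGAA and 33.5% of the 179 without. For CCGGAAG it was 47.8% of 115 with and 37.0% of 219 without. For the GC box it was 32.6% of 144 with and 46.8% of 190 without. CCAAT (39.1% with, 41.1% without) and ACTACAA (40.6% and 40.7%) showed little contrast. The one-direction sites also had CCGGAA more often among those with 8 libraries (54.9%) than among all (44.8%). The windows had a median GC content of 62.7%, close to the 63.2% of one-direction sites and above the 47.8% of sites outside promoters. In the 29 members with a mean percentile above 95 it was 54.7%, in the 129 members between 25 and 50 it was 64.7%, and in the 71 members up to 25 it was 62.7%. Across the 334 members, GC content and mean percentile had a Spearman rho of -0.19, and across the 1062 one-direction sites -0.05. These correlations are across sites that share the same libraries and are given as a description.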

How the data were processed

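Per the labels and methods, reads were aligned to mm10, and the submitters' processing notes name Bowtie2 2.5.0 and MACS2 2.2.7.1, which made 1 list of peaks per library. The deposited columns used were positions, fold enrichment, which is a ratio to local background reads, plus −log10 p-values and −log10 q-values, all from the authors. The authors' score, a rescaled −log10 q, was not used. The lists stop at a false discovery rate of 5%, each has its own background, and which input served as control is not given in the sources used here. The 2 input libraries were not analysed here. Read depth was not used, and the lists hold 2367 to 4079 peaks.

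The members and the gene lists were chosen with earlier results of these data known. Peaks of the 8 libraries were merged where they overlapped by 1 bp or more. Start sites came from 119657 RefSeq transcripts, predicted models included, and with the 45756 curated transcripts alone 297 sites met the rule. Motif windows ran 100 bp to each side of the summit of the strongest peak. The shares of paired-start and other genes were compared by exact sign flips over libraries, and their difference between nuclei by exact permutation over the 70 assignments of 8 libraries. Tests between nuclei of how many members were called had been planned and are not reported, since the calls chose the members. Strength was fitted with limma 3.58.1 (R 4.3.3) on median-centred log2 fold enrichment. In simulated data for the 1089 regions, 90.5% of 200 regions changed by 1 on the log2 scale were recovered, with 8 false calls. The simulated noise was normal and independent between libraries, without the cutoff of the peak lists. Most called members differed by less than 1, and recovery at such sizes was not simulated. Members were named by rule: the 8 of highest mean percentile, the 5 largest differences in each direction past an adjusted p of 0.05, up to 5 per nucleus called in 3 or 4 of its libraries and none of the other, those with an element of at most 1 mismatch, the 3 shortest start distances, and the 3 nearest to the 1 kb limit on each side. Alternatives varied the libraries required, the merging, the thresholds, list length, annotation, start distance, scale and libraries. Python 3.11.15, numpy 2.4.6, pandas 2.3.3 and scipy 1.17.1 were used.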

Additional observations from a re-analysis of the deposited data

Results flagged for a closer look

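Over 50 groups of 4 libraries checked for a library that stood far from the others, 2 were flagged, and chance flags about 1 in 20. The difference between paired-start genes and other coding genes with a peak was 12.6, 13.3, 18.5 and 13.2 percentage points in AVPV libraries 1 to 4. AVPV library 3 stood apart, with a gap to its nearest neighbour of 0.888 of the whole range. Without AVPV library 3 and arcuate library 4, the 2 libraries with a peak at the most members, the mean difference was 13.8 points. An exact sign-flip test over 6 libraries, chosen after seeing the data, gave p = 0.0312, the value that 6 differences of the same sign give. At Iftap/Rag2, fold enrichment in the AVPV was 16.2 in library 1 and 14.1, 13.97 and 14.1 in libraries 2 to 4, a gap of 0.941 of the range. Without AVPV library 1 the difference at this site still passed the limma test.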

How the results depend on the processing

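The numbers of members were 248 to 343 under the other merging, thresholds, list lengths, start distances and annotation, and 502 when a peak in 1 library sufficed. The difference in the share of peaks at members was -1.55 percentage points (arcuate minus AVPV) with at least 3 libraries per site. The difference in members per library turned to -29.5 with lists of equal length. Leaving out 1 library at a time gave 302 to 331 members, differences of 6.5 to 26.8 members, -1.89 to -1.19 points of all peaks and -0.46 to 0.0738 points of promoter peaks (positive without arcuate library 1), and 14.3 to 15.1 points for paired-start genes.

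On centred log2 values limma called 211 regions and 26 members. On percentiles it called 78 and 9 (5 higher in the arcuate, 4 in the AVPV). On log2 of the −log10 p it called 99 and 10 (2 and 8). All 9 and all 10 members were among the 26. Leaving out 1 library gave 154 to 226 regions and 20 to 28 members, 4 to 12 of them with the arcuate higher and 15 to 21 with the AVPV higher, with 5 in the arcuate without AVPV library 2 and 4 without AVPV library 4. Members with 4 against 0 libraries for the arcuate were 1 at fold enrichment above 5 and 2 to 7 when 1 library was left out, and for the AVPV 2 to 3. With 1 library left out, only the remaining libraries counted, so the rule was looser. The 7 were without arcuate library 1, and 4 were found without AVPV library 3 or 4. Response elements with at most 1 mismatch were at 0.299% of members. The cause of these changes was not tested.

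Deviations of same-numbered libraries of the nuclei had correlations of 0.10, -0.01, 0.05 and -0.31. Between different numbers they ran from -0.34 (arcuate 1 with AVPV 3) to 0.36 (arcuate 4 with AVPV 3). Whether the numbers mark pairs, or libraries share a batch, cannot be told from these values. With the number as replicate block, 208 regions and 25 members were called, and the per-library differences were 13.5 members, -1.50 points and -0.27 points. The peak lists hold no depth.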
